A study of Mus musculus with 19 samples.

Results

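Serinc3, Ahcy, Phf20, 2900097C17Rik, Pkig, Map1lc3a and Tgif2 are 7 genes of mouse chromosome 2, the chromosome that carries Asxl1. They were followed here over all 19 bone marrow RNA libraries of a study of Asxl1-mutant mice. They were chosen because each lies on chromosome 2 and differed between mutant and wild-type libraries in 1 or more cell sets, so those differences are described and not tested again. The 7 genes are part of 14246 gene symbols listed in all 3 cell sets, out of 16842 listed in any set. All 7 passed the filter on low counts in every set.

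The libraries fell into 6 groups, named by cell type, age and the genotype label MT (mutant) or WT (wild type). Myeloid cells sorted for CD11b, called Cd11b cells below, came from mice of 4 months (3 MT and 4 WT libraries) and of 18 months (3 and 3). LK cells, the lineage-negative and c-Kit-positive progenitor fraction, came from mice of 18 months (3 and 3). The series title and design text name mutant ASXL1 proteins, clonal haematopoiesis and chronic myelomonocytic leukaemia as the subject. The labels give the genotype as MT or WT and no more, so the allele, its promoter, the strain, the sex and the number of animals behind each library are unknown here. Nothing in the labels says that replicates are separate animals, so p-values measure the spread between these libraries, which may be technical in part.

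Asxl1 encodes a Polycomb-group chromatin protein whose truncating mutations are frequent in clonal haematopoiesis and myeloid malignancies. Genes on the same chromosome arm as an engineered or mutated locus are inherited together with it unless recombination separates them. Whether these mice share a stretch of chromosome around Asxl1 by descent is not given in the labels and was not tested. The 7 genes do unrelated jobs. Serinc3 encodes a multi-pass membrane protein of the SERINC family, some of whose members restrict retroviruses. Ahcy encodes the enzyme that removes S-adenosylhomocysteine, the by-product of methylation reactions. Phf20 encodes a reader of methylated lysine in the NSL acetyltransferase complex, and Pkig encodes an inhibitor of protein kinase A. Map1lc3a encodes an ATG8-family protein that is joined to lipid during autophagy. Tgif2 encodes a homeodomain repressor that acts with SMAD proteins in TGF-beta signalling, and 2900097C17Rik is annotated as a long intergenic non-coding RNA.

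All 7 genes lie distal to Asxl1, in mm10 coordinates, the build named in the submitters' processing notes. Asxl1 spans positions 153345829 to 153404007 on the plus strand. Ahcy (155059310 to 155074497, minus strand) starts 1.73 Mb from the Asxl1 start, and Map1lc3a (155276297 to 155278073, plus strand) starts 1.93 Mb from it. Phf20 (156196466 to 156309952, plus strand) follows at 2.85 Mb. 2900097C17Rik (156388065 to 156392979, minus strand) lies at 3.05 Mb and Tgif2 (156840007 to 156855570, plus strand) at 3.49 Mb. Serinc3 (163623272 to 163645131, minus strand) and Pkig (163658386 to 163726158, plus strand) are neighbours at 10.3 Mb, start head to head, and have a gap of 13.3 kb between them. The 7 genes thus fall into a group of 5 up to 3.49 Mb from Asxl1 and a pair much farther away.

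The 250 bases before the RefSeq start of the neighbouring pair and of the 2 genes that were higher in mutant Cd11b cells are shown, because these are the sequences closest to the transcripts that differed. They are from the RefSeq promoter table of build GRCm38.p6, which held 5 of the 7 genes. The Pkig sequence is the first of its 3 listed starts. The RefSeq start of Phf20 lies inside the gene as placed above from GENCODE, so that 181 of its 250 bases are within that gene. Capitals mark matches on either strand to short promoter motifs. The TATA box was searched for with the letters TATAAA. The CCAAT box was searched for with the letters of its name. The GC box was searched for with the letters GGGCGG, and the E-box with the letters CACGTG. The letters TGACAG stand for a TGIF-type site.
Serinc3 (chr2:163645144-163645393, minus strand): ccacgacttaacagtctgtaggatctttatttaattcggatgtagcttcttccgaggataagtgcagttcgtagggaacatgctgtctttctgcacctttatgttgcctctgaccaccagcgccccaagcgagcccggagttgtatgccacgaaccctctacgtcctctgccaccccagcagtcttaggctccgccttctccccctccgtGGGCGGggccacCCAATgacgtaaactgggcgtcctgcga
Pkig (chr2:163658136-163658385, plus strand): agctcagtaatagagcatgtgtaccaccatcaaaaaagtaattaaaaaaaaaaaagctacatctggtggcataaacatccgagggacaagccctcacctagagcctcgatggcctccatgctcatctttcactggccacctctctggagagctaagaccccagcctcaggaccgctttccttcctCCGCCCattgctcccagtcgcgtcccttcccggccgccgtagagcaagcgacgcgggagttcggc
Phf20 (chr2:156196397-156196646, plus strand): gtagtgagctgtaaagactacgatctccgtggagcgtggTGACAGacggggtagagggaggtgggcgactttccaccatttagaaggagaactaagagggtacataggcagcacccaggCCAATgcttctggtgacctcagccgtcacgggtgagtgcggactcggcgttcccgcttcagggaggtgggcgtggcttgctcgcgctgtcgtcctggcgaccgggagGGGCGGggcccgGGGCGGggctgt
Tgif2 (chr2:156839757-156840006, plus strand): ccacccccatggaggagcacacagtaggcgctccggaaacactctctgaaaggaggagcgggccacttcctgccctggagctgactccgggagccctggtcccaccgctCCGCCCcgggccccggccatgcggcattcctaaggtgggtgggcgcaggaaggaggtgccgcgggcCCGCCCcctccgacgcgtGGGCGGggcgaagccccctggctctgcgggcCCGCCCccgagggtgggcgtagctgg

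The head-to-head pair differs in these windows. The Serinc3 sequence holds 1 GC box and 1 CCAAT box and 15 CG dinucleotides, and the Pkig sequence holds 1 GC box and 13 CG dinucleotides. The Phf20 sequence holds 2 GC boxes, 1 CCAAT box, 1 TGIF-type site and 20 CG dinucleotides. The Tgif2 sequence holds the most GC boxes of these 4, with 4 GC boxes and 22 CG dinucleotides. For comparison, the median of all 32851 RefSeq promoter windows of this length was 6 CG dinucleotides. GC boxes occurred in 32.7% of those windows, CCAAT boxes in 33.8%, TGIF-type sites in 15.9%, TATA boxes in 12.4% and the E-box in 6.02%. No motif was shared by these 4 genes beyond the GC box, which all 4 hold. A match to such short letters is a description of the window and not evidence of a bound factor.

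Total gene counts per library ran from 26251822 to 68260809, and those of the Cd11b libraries of 4 months from 26251822 to 38347903. In the groups of 18 months, replicates 2 and 3 were closer to each other (chi-square per degree of freedom 3.02 to 6.74) than either was to replicate 1 (14.6 to 47.6). Each pair still differed beyond counting error, but that does not show that replicates 2 and 3 are independent. Every library was kept as a replicate of its own, and values with replicates 2 and 3 summed are given where they change a call. That choice matters: with them summed, LK genes at an adjusted p under 0.05 fell from 4206 to 3 (edgeR). In the set of 4 months, MT replicate 3 and WT replicate 4 deviated together from their groups (r = 0.60 across genes, which are not independent replicates). Levels are given in CPM, read counts scaled to the size of each library. The Cd11b markers fitted their label, with a summed level of 8 myeloid markers of 34512 to 113894 CPM in Cd11b libraries and 975 to 3983 CPM in LK libraries. None of them was at 0 in a set. Conversely, 8 progenitor markers summed to 13401 to 16753 CPM in LK and 890 to 5958 CPM in Cd11b libraries. Asxl1 itself was detected at 202, 202 and 205 CPM in MT and 204 to 236 CPM in WT Cd11b cells of 4 months. It reached 285 to 297 CPM in MT and 279 to 306 CPM in WT Cd11b cells of 18 months, where the groups overlapped. In LK cells Asxl1 was 97.4, 92.5 and 95.7 CPM in MT and 106, 116 and 117 CPM in WT, a log2 fold change of -0.28 ± 0.06 (SE). With a trend on transcript length removed, that LK value was -0.10 and not called (adjusted p = 0.0606, edgeR). A whole-gene count does not show which allele was read, so it does not check the genotype labels.

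Across the genome, edgeR's quasi-likelihood test with Benjamini-Hochberg adjustment called 0 of 13755 genes (0.0%) in Cd11b cells of 4 months, 45 of 13398 (0.336%) in Cd11b cells of 18 months and 4206 of 14113 (29.8%) in LK cells, at an adjusted p under 0.05. Of the 7 genes, 0 were called at 4 months. All 7 stood there at an unadjusted p under 0.05, as did 444 genes in all (3.23%), and DESeq2 called Tgif2 among 19 genes. Serinc3, Phf20 and Tgif2 were called in Cd11b cells of 18 months, 3 of 7. All but Tgif2 were called in LK cells, 6 of 7. These calls are what the genes were chosen for and carry no further weight. Nearest to the threshold, Phf20 stood just inside it in Cd11b cells of 18 months (adjusted p = 0.0474, edgeR) and Map1lc3a just outside (0.123). In LK cells Ahcy was just inside (0.0360) and Tgif2 outside (0.490). Single libraries decided many of these calls. In Cd11b cells of 18 months 0 of the 7 genes were called without MT replicate 2 or MT replicate 3, and Serinc3 alone without WT replicate 2 or WT replicate 3. In LK cells Serinc3 and Map1lc3a were called in each fit that left out a library, and between 2 and 5 of the 7 genes in all. With replicates 2 and 3 summed, 0 were called in Cd11b cells of 18 months and Serinc3 alone in LK cells.

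**Figure D1:**
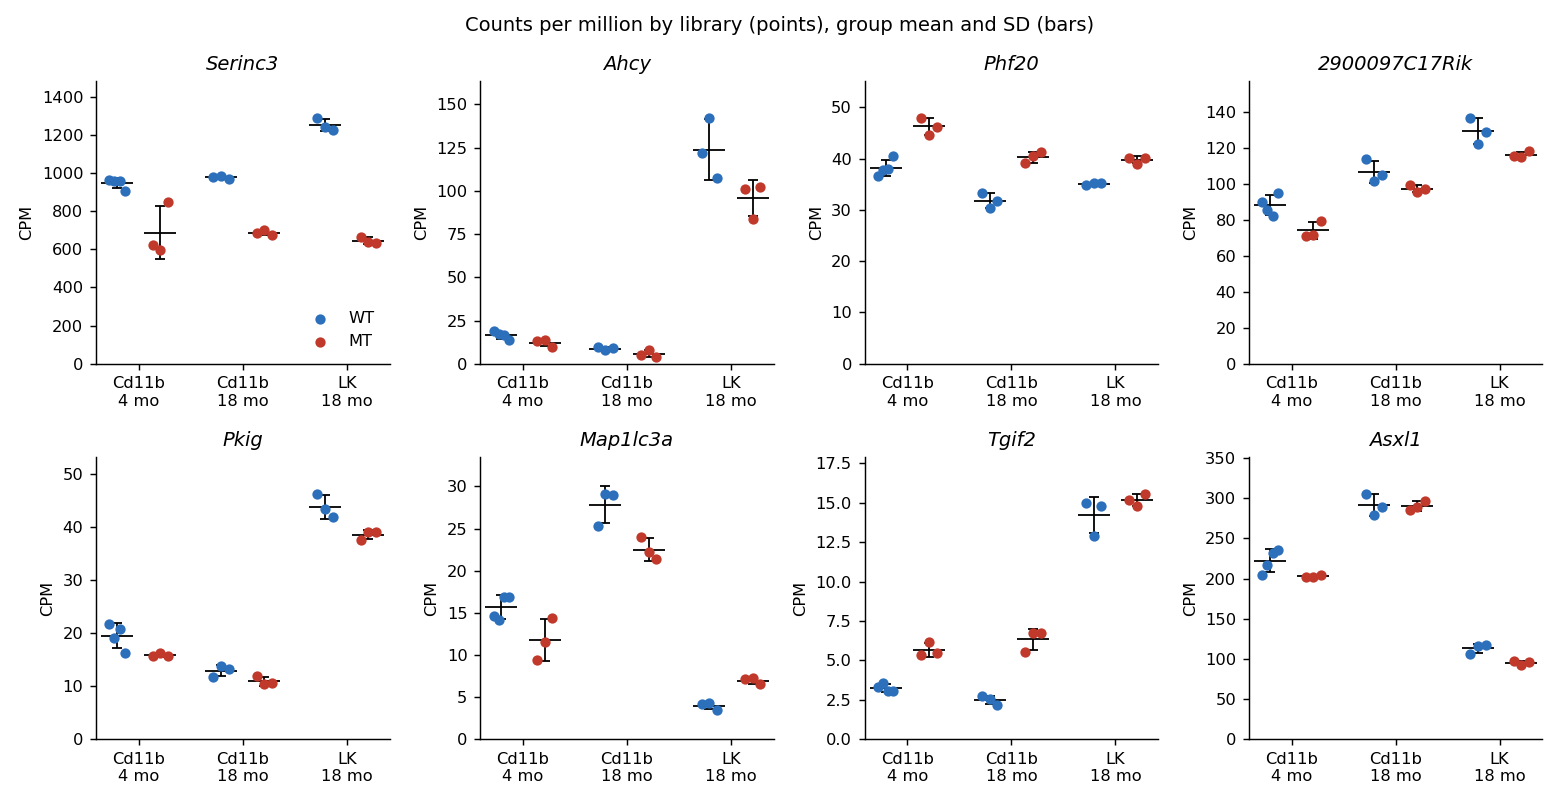
CPM (vertical axis, from 0) of the 7 genes and Asxl1 in each of 19 libraries, grouped on the horizontal axis by cell set with WT in blue and MT in red; bars are the group mean and SD. Serinc3 is lower in every MT library than in every WT library of its set, and Map1lc3a changes sides between Cd11b and LK cells.

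Serinc3 was lower in the MT libraries of each set, and the difference was larger in LK cells. The Cd11b libraries of 4 months were at 622, 593 and 846 CPM in MT and 963, 959, 958 and 906 CPM in WT. Those of 18 months were at 687, 700 and 675 CPM in MT and 977, 983 and 971 CPM in WT. In LK cells it was at 666, 636 and 634 CPM in MT and 1288, 1243 and 1226 CPM in WT. The groups did not overlap in any set. MT replicate 3 of 4 months lay close to the WT libraries, and it is 1 of the 2 libraries that deviated together. The log2 fold change of MT against WT was -0.46 ± 0.12 at 4 months, -0.51 ± 0.04 in Cd11b cells of 18 months and -0.99 ± 0.04 in LK cells (SE). Without MT replicate 3 and WT replicate 4 the value at 4 months was -0.66. On the linear scale the WT level was 1.43 times the MT level in Cd11b cells of 18 months and 1.98 times in LK cells.

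Phf20 differed in the opposite direction, with each MT library above each WT library of its set. At 4 months, Cd11b cells held 47.9, 44.6 and 46.2 CPM in MT and 36.6, 37.7, 37.9 and 40.5 CPM in WT. At 18 months they held 39.1, 40.5 and 41.2 CPM in MT and 33.3, 30.4 and 31.7 CPM in WT. In LK cells it was at 40.2, 39.0 and 40.1 CPM in MT and 34.7, 35.2 and 35.2 CPM in WT. The MT levels of the 18-month sets were nearly the same in both cell types. The log2 fold changes were 0.28 ± 0.06, 0.34 ± 0.05 and 0.15 ± 0.04 (SE) in that order of sets. With a trend on transcript length removed, the LK value was 0.28.

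2900097C17Rik, the non-coding RNA that lies just distal of Phf20, was lower in MT libraries of each set. It was at 71.2, 71.6 and 79.5 CPM in MT and 90.1, 85.4, 82.4 and 94.7 CPM in WT Cd11b cells of 4 months. At 18 months it was at 99.2, 95.5 and 97.4 CPM in MT and 114, 102 and 105 CPM in WT Cd11b cells. In LK cells it was at 115, 115 and 118 CPM in MT and 137, 122 and 129 CPM in WT. The gap between the groups was narrow in each set, with the highest MT library just under the lowest WT library. The log2 fold changes were -0.25 ± 0.07, -0.14 ± 0.05 and -0.18 ± 0.04 (SE). With the length trend removed, the LK value was -0.10 and no longer called (adjusted p = 0.195, edgeR).

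Serinc3, Phf20 and 2900097C17Rik were thus the members, 3 of 7, whose MT and WT libraries did not overlap in the same direction in all 3 sets. Among all 12543 genes tested in each set, 30 did so (0.239%). For each set alone the share of all genes without overlap was 4.46% at 4 months, 22.9% in Cd11b cells of 18 months and 46.0% in LK cells, where 4, 5 and 6 of the 7 genes showed none. Being called in 2 sets in the same direction was rarer, with Serinc3 and Phf20 among 7 such genes in all (0.0558%). The 7 chromosome 2 genes were chosen for genotype differences in these same sets. Their shares are raised by that choice and carry no further weight.

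Pkig and Ahcy were lower in MT on average in each set, but with overlap in Cd11b cells. Pkig was at 15.7 to 16.4 CPM in MT and 16.4 to 21.7 CPM in WT at 4 months, where the highest MT library (16.35 CPM) lay just under the lowest WT library (16.37 CPM) on this scale and the groups overlapped on the scale of the set alone. At 18 months, MT replicate 1 (11.95 CPM) lay inside the WT range of 11.8 to 13.8 CPM, and the other 2 MT Cd11b libraries were at 10.4 and 10.6 CPM. In LK cells it was at 37.6, 39.1 and 39.1 CPM in MT and 46.3, 43.4 and 41.9 CPM in WT, with no overlap. Its log2 fold changes were -0.30 ± 0.10, -0.24 ± 0.09 and -0.21 ± 0.04 (SE), the most even of the 7 genes. Ahcy was at 9.92 to 13.9 CPM in MT and 13.8 to 18.7 CPM in WT at 4 months, and at 4.14, 8.03 and 5.28 CPM in MT and 7.90 to 9.44 CPM in WT Cd11b cells of 18 months. MT replicate 2 of 18 months lay inside the WT range. In LK cells Ahcy was an abundant transcript, at 101, 83.6 and 102 CPM in MT and 122, 142 and 107 CPM in WT. Its log2 fold changes were -0.44 ± 0.14, -0.59 ± 0.22 and -0.40 ± 0.11 (SE). The summed level of the 8 progenitor markers in Cd11b cells of 18 months was 890 to 1047 CPM in MT and 1124 to 1170 CPM in WT. That sum is mostly Mpo and Elane, at log2 fold changes of -0.36 and -0.40, while 4 of the 8 markers had positive values (Cd34 at 1.03), 0 were called and the median was 0.02. Their part in the Ahcy and Pkig values was not tested.

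Map1lc3a was the member whose difference changed sign. Its Cd11b values at 4 months were 9.40, 11.6 and 14.4 CPM in MT and 14.6, 14.2, 16.9 and 16.9 CPM in WT, with MT replicate 3 inside the WT range. Its Cd11b values at 18 months were 24.0, 22.2 and 21.4 CPM in MT and 25.3, 29.1 and 29.0 CPM in WT. In LK cells it was at 7.14, 7.24 and 6.55 CPM in MT and 4.19, 4.26 and 3.52 CPM in WT. The log2 fold changes were -0.41 ± 0.14, -0.31 ± 0.08 and 0.77 ± 0.11 (SE). With the length trend removed, the LK value was 0.57 and still called (adjusted p = 0.0108, edgeR). The gene was lower in MT where it was abundant and higher in MT where it was scarce. LK libraries also differed in myeloid markers, whose sum was 1612 to 3983 CPM in MT and 975 to 1464 CPM in WT. In that list 1 of 7 tested genes was called higher and 1 lower, with a median log2 fold change of 1.74. The part of the marker difference in the Map1lc3a value was not tested. In bulk RNA, fewer cells of a type and less RNA per cell cannot be told apart.

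Tgif2 had the highest fold change of the 7 genes, and it was found in Cd11b cells. Cd11b cells of 4 months had 5.37, 6.16 and 5.49 CPM in MT and 3.33, 3.58, 3.10 and 3.07 CPM in WT. Cd11b cells of 18 months had 5.56, 6.72 and 6.75 CPM in MT and 2.72, 2.56 and 2.20 CPM in WT. In LK cells it was at 15.2, 14.8 and 15.6 CPM in MT and 15.0, 12.9 and 14.8 CPM in WT, and the groups overlapped. The log2 fold changes were 0.80 ± 0.13 at 4 months, 1.34 ± 0.13 in Cd11b cells of 18 months and 0.07 ± 0.07 in LK cells (SE). In linear terms MT was 2.53 times WT in Cd11b cells of 18 months and 1.05 times WT in LK cells. The counts behind the Cd11b values were 80 to 327 reads per library. The part of the progenitor markers in the Tgif2 values was not tested.

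**Figure D2:**
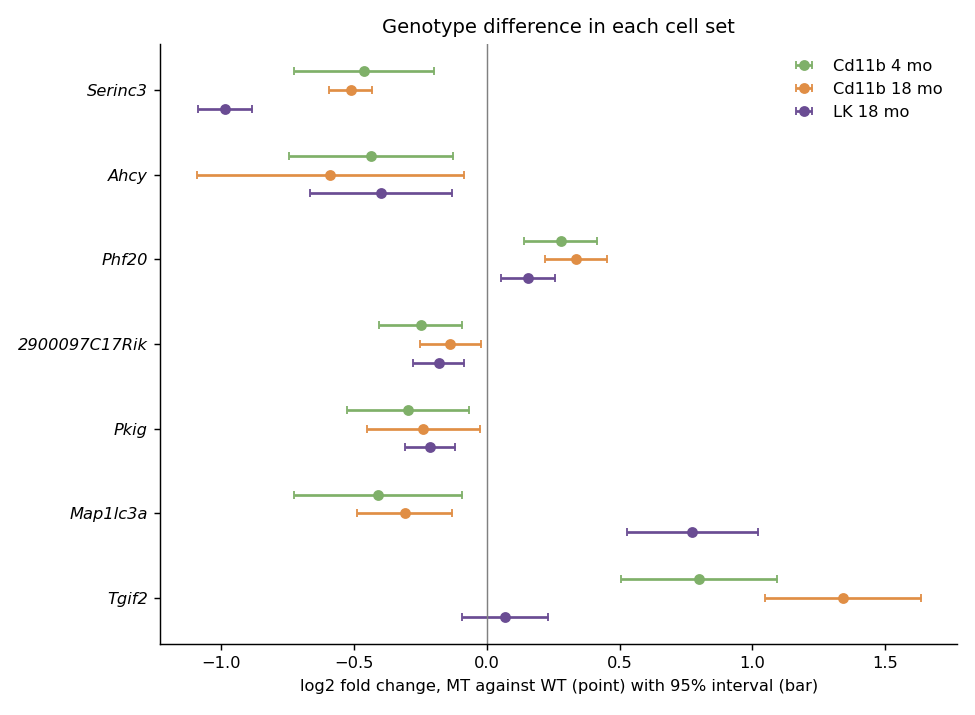
Log2 fold change of MT against WT (horizontal axis) for each of the 7 genes (vertical axis) in 3 cell sets; points are edgeR estimates and bars their 95% intervals. Pkig and 2900097C17Rik keep nearly the same value in the 3 sets, Serinc3 is about -0.99 in LK cells against -0.51 in Cd11b cells of 18 months, Map1lc3a changes sign and Tgif2 is near 0 in LK cells.

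Whether a genotype difference was the same in both cell types was asked at 18 months, as the difference in log2 fold change of LK cells minus Cd11b cells in 1 edgeR fit over 12 libraries. The labels do not say whether LK and Cd11b libraries came from the same mice, and the fit took all libraries as independent. Of 13996 genes tested, 2904 (20.7%) were called, and of the 7 genes 3 were called: Map1lc3a, Tgif2 and Serinc3. The genotype contrasts that chose these genes enter this difference, so a gene picked for a high value in 1 set had a head start and these p-values are not independent of the choice. For Map1lc3a the difference was 1.07 ± 0.12 (SE), with a 95% interval of 0.81 to 1.33 and adjusted p = 0.0031. For Tgif2 it was -1.28 ± 0.15, with an interval of -1.60 to -0.96 and adjusted p = 0.0031 (edgeR). For Serinc3 it was -0.48 ± 0.06, with an interval of -0.62 to -0.34 and adjusted p = 0.0045 (edgeR), so the difference had the same direction in both cell types and another size.

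The other 4 genes were not called in this comparison. For Phf20 the difference was -0.19, with an interval of -0.34 to -0.04 and adjusted p = 0.0670 (edgeR), and it was called only when Cd11b WT replicate 1 of 18 months was left out (adjusted p = 0.0219). With the length trend removed the Phf20 difference was 0.0056 and that of 2900097C17Rik 0.0870. For Pkig the difference was 0.02 with an interval of -0.18 to 0.21, and for 2900097C17Rik it was -0.05 with an interval of -0.20 to 0.10. If replicates 2 and 3 are taken as independent, as in this fit, these 2 intervals exclude a difference between cell types of the size seen for Serinc3. That independence is not shown, so the exclusion is only as firm as that choice. For Ahcy the difference was 0.18 with an interval of -0.43 to 0.79, which is too wide to call the value constant. Map1lc3a, Tgif2 and Serinc3 were called in each of 12 fits that left out a library. With replicates 2 and 3 summed within each group the 3 differences were 1.02, -1.21 and -0.46, close to the values above, but the fit called 0 genes of 14227 (1803 at an unadjusted p under 0.05) and the adjusted p was 0.363 for each of the 3 genes (edgeR).

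**Figure D3:**
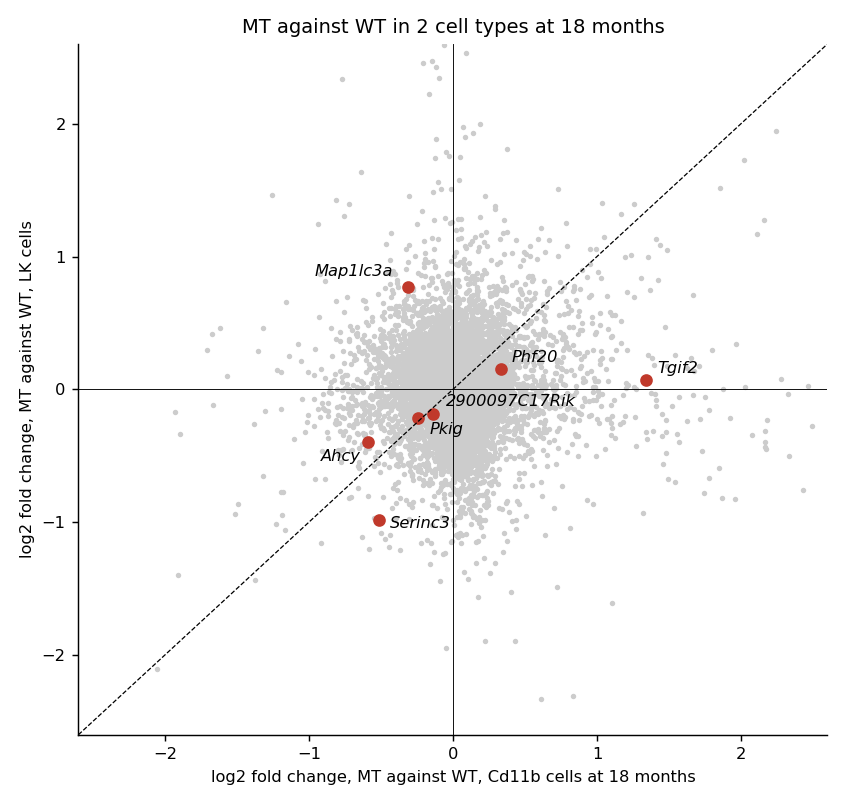
Log2 fold change of MT against WT in Cd11b cells of 18 months (horizontal axis) and in LK cells (vertical axis) for all genes tested in both (grey) and the 7 chromosome 2 genes (red); the dashed line marks equal values, and 17 of 12753 genes lie outside the axes. Pkig, 2900097C17Rik and Ahcy are near the line, Serinc3 is below it, Map1lc3a is in the upper left quadrant and Tgif2 is near the horizontal zero line.

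Between the 2 ages of Cd11b cells, 0 of the 7 genes were called, with 3 of 14024 genes called in all (0.0214%, edgeR). At an unadjusted p under 0.05 there were 1035 genes in all and 1 of the 7, and DESeq2 called 63 genes and 0 of the 7. Tgif2 had the highest difference of 18 minus 4 months, 0.54 with an interval of 0.15 to 0.93 and adjusted p = 0.471 (edgeR). The other 6 genes lay between -0.15 and 0.11. For Phf20 the interval was -0.11 to 0.23, and for 2900097C17Rik it was -0.08 to 0.30. When all 3 sets were compared in 1 fit, 1543 of 14112 genes (10.9%) were called, and of the 7 genes 3: Tgif2 (adjusted p = 0.0015), Map1lc3a (0.0020) and Serinc3 (0.0264), by edgeR. The Serinc3 call was lost when LK MT replicate 2 or 3 or LK WT replicate 2 or 3 was left out (adjusted p = 0.0714 to 0.0863). It was also lost with a replicate block (adjusted p = 0.0596, edgeR).

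The genotype differences can be set beside the normal levels of the genes, in a comparison among WT libraries alone. Between WT LK and WT Cd11b cells of 18 months, 86.8% of 13710 genes were called, and 6 of the 7 genes were. Ahcy was higher in LK by 3.72 ± 0.12 on the log2 scale, a fold of 13.2. Tgif2 was higher by 2.42 ± 0.12 and Pkig by 1.66 ± 0.07. Map1lc3a was lower in LK by -2.89 ± 0.10, so that WT Cd11b cells held 7.42 times the LK level. Serinc3 (0.26 ± 0.05) and 2900097C17Rik (0.18 ± 0.06, adjusted p = 0.0225 by edgeR, lost in 6 of 9 alternatives) were slightly higher in LK. Phf20 was not called (0.04 ± 0.06) and was -0.04 with the size factors of DESeq2. Thus Serinc3, Phf20 and 2900097C17Rik, whose groups separated in each set, were at similar levels in both cell types, and the other 4 differed by 1.66 or more on the log2 scale.

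Between WT Cd11b cells of 18 and of 4 months, 73.1% of 13719 genes were called, and 6 of the 7 genes were. Ahcy was lower at 18 months (-0.94 ± 0.12), as were Pkig (-0.61 ± 0.11), Tgif2 (-0.41 ± 0.15) and Phf20 (-0.28 ± 0.06). The Tgif2 call was lost in 4 of 10 alternatives, each a fit without 1 library (adjusted p = 0.0513 to 0.141, edgeR). Map1lc3a (0.81 ± 0.09) and 2900097C17Rik (0.26 ± 0.07) were higher. Serinc3 was not called (0.03 ± 0.06). The 2 ages also differed in depth, and age and any batch cannot be told apart in these libraries. Marker sums of the WT Cd11b libraries differed too. The 8 progenitor markers summed to 3487 to 5958 CPM at 4 months and 1124 to 1170 CPM at 18 months. For the 8 myeloid markers the sums were 34512 to 44782 CPM and 94620 to 113894 CPM. The part of this difference in cell content in the age values of the 7 genes was not tested.

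Per kilobase of the longest annotated transcript, Serinc3 was the most abundant of the 7 genes in each group, at 175 to 340 CPM per kb as group means. Tgif2 was the lowest of the 7 in Cd11b cells, at 0.86 to 2.19 CPM per kb. In WT LK cells the order was Serinc3 (340), Ahcy (48.6), 2900097C17Rik (26.3), Pkig (15.6), Phf20 (6.11), Tgif2 (4.90) and Map1lc3a (3.59). In WT Cd11b cells of 18 months it was Serinc3 (265), Map1lc3a (25.0), 2900097C17Rik (21.7), Phf20 (5.54), Pkig (4.62), Ahcy (3.44) and Tgif2 (0.86). The place of Ahcy and Map1lc3a in these orders was nearly exchanged between the cell types.

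Some of these counts may hold reads of other loci. The annotation places an antisense gene over Serinc3 (0610039K10Rik), Ahcy (Gm45609), Pkig (Gm16316) and Tgif2 (5430405H02Rik and Gm37790), and the labels do not say whether strand was used in counting. 0610039K10Rik was at 0.16 to 1.37 CPM, far below Serinc3. 5430405H02Rik was as abundant as Tgif2 in Cd11b cells, at 3.36 to 5.83 CPM, and its log2 fold changes of -0.20, -0.07 and 0.38 did not follow those of Tgif2. Transcripts of Ahcy align to Gm4737 at 99.7% identity over 2083 bases, and those of 2900097C17Rik to Gm7292 at 99.2% over 2537 bases. Those of Tgif2 align to a pseudogene, Tgif2-ps2, at 99.6% over 711 bases. Of the 2900 bases of the longest Tgif2 transcript, 1455 also match 5430405H02Rik at 100% identity, searched on either strand. Less similar pseudogenes were Gm12420 for Serinc3 (90.7% over 1043 bases) and Phf20-ps for Phf20 (95.2% over 1652 bases). Of these matches, only 5430405H02Rik was listed in these data. It is the antisense gene over Tgif2 named above and not a copy at another place. How the counting treated reads that match both is not stated. The levels of Serinc3, Ahcy, Phf20, 2900097C17Rik and Tgif2 are uncertain to that extent. Pkig and Map1lc3a had no such copy.

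Chromosome 2 around Asxl1 was then examined with the 100 listed genes on each side, a span from 22.2 Mb proximal to 10.6 Mb distal that holds all 7 genes. In LK cells 69 of 193 tested neighbours were called (35.8%), and 63 of 186 (33.9%) without the 7 genes, against 29.8% of all genes. In Cd11b cells of 18 months 7 of 187 were called (3.74%), and 4 of 180 (2.22%) without the 7 genes, against 0.336% of all genes. At 4 months 0 of 188 were called. The count at 18 months in Cd11b cells ranged from 0, with MT replicate 2 or MT replicate 3 left out, to 37, with WT replicate 1 left out. It was 14 in the fit that lacked MT replicate 1, and 1 in the fits that lacked WT replicate 2 or WT replicate 3. The LK count was 23 to 25 when replicate 2 or 3 of either genotype was left out and at most 87 in the other such fits. In the fits without replicate 2 or 3, LK genes called in all were 981 to 1185. The neighbours whose groups did not overlap in the same direction in all 3 sets were Serinc3, Phf20 and 2900097C17Rik, 3 of 180, and 0 of the 173 others. On the whole of chromosome 2, without the 7 genes, 3 of 963 tested genes did so (0.312%), against 27 of 12536 (0.215%) in the genome without them.

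The sides of Asxl1 differed in the set of 4 months by a count chosen after the values were seen. At an unadjusted p under 0.05 stood 2 of 97 proximal neighbours (2.06%) and 9 of 84 distal neighbours (10.7%) without the 7 genes, against 3.23% of all genes. In Cd11b cells of 18 months the same counts were 25 of 97 (25.8%) and 28 of 83 (33.7%), against 16.6% of all genes. In LK cells they were 46 of 96 (47.9%) and 38 of 90 (42.2%), against 42.3%, so the order of the sides was not the same there. No test of the sides was made.

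**Figure D4:**
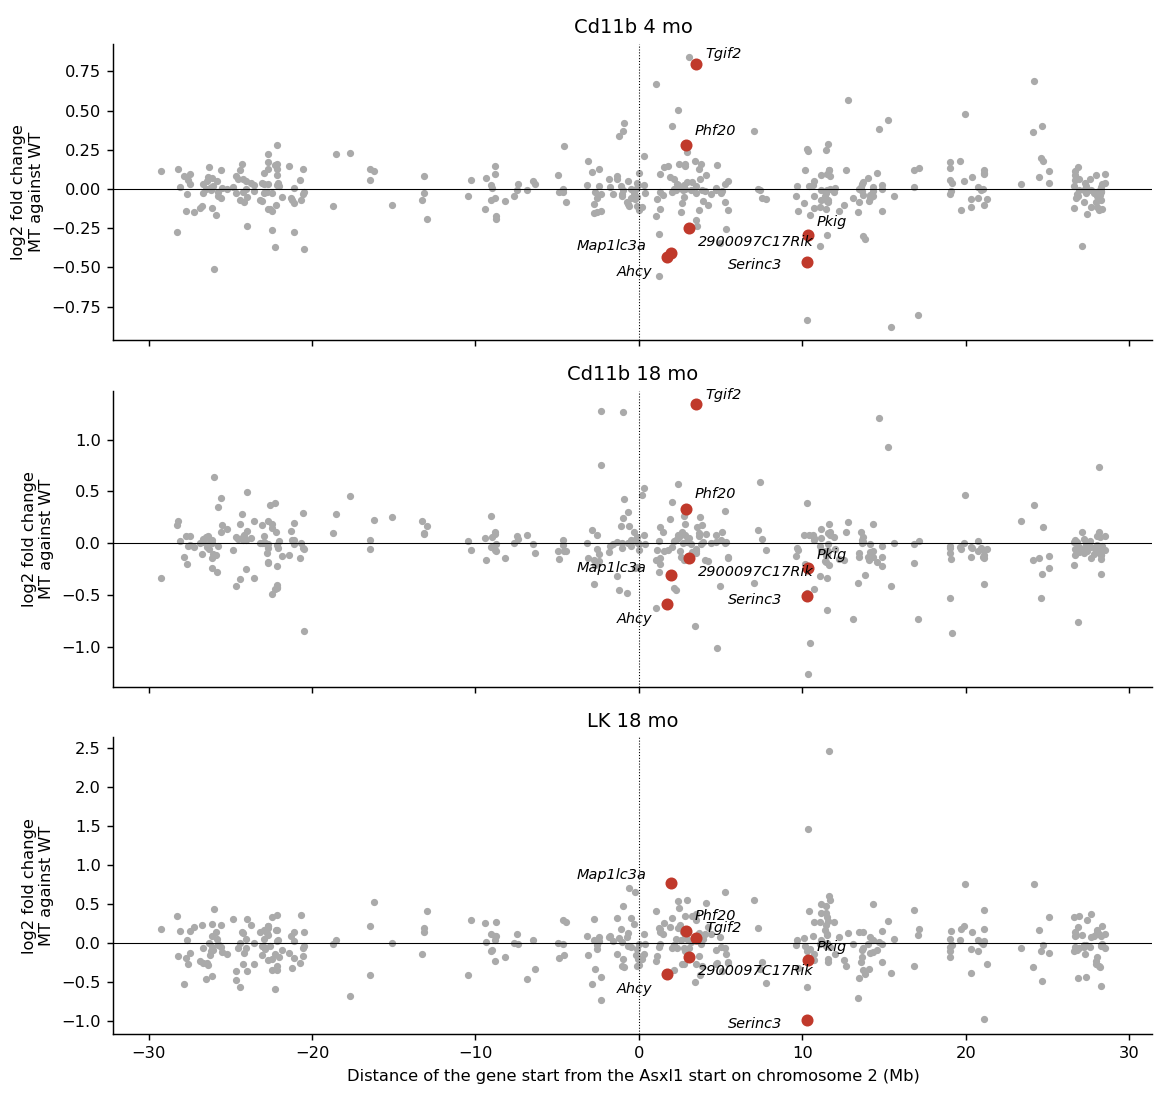
Log2 fold change of MT against WT (vertical axis, with its own range in each panel) by distance of the gene start from the Asxl1 start (horizontal axis, in Mb; positive is distal) for genes within 30 Mb, in the 3 cell sets; grey points are other genes and red points the 7 genes. All 7 lie on the distal side, with values on both sides of 0 among their grey neighbours.

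Some listed genes close to Phf20, Serinc3, Map1lc3a and Pkig were set beside them. Rbm39 and Scand1, which flank Phf20 with gaps of 16.2 and 1.90 kb, had log2 fold changes of -0.0017 and 0.04 at 4 months and of 0.08 and 0.02 in Cd11b cells of 18 months. In LK cells they were at 0.11 and 0.56. Romo1, 50.7 kb from Phf20, was at 0.16, 0.29 and 0.35 in the 3 sets. Ttpal, 4.26 kb from Serinc3, was at 0.25, 0.39 and -0.09 in the 3 sets, where Serinc3 was lower throughout. The antisense gene 0610039K10Rik, which overlaps Serinc3, had log2 fold changes of -0.83, -0.48 and -0.56 and was not called in any set. Pigu, 0.17 kb from Map1lc3a, was at -0.02, -0.04 and -0.06. Ada, 0.43 kb from Pkig, was at 0.02, 0.08 and 0.41. Of these genes, Scand1, Romo1 and 0610039K10Rik had the direction of the member beside them in each set, and the other 4 did not. Scand1 also flanks 2900097C17Rik, with a gap of 75.4 kb, and was opposite to it in direction in each set. The flanking genes were picked, with none set beside Ahcy or Tgif2 here, so the count depends on the choice. Scand1 (adjusted p = 0.0063), Romo1 (0.0117) and Ada (0.0198), the last opposite in direction to Pkig, were called in LK cells by edgeR.

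For each of the 7 genes, the genes with the most similar pattern were found by Pearson's r over 19 libraries of log2 CPM, centred on the mean of each cell set. These libraries share genotype groups and the deviation of replicate 1, so the values are descriptions with no p. Serinc3 was nearest to Coro7 (0.92), Ankrd13a (0.92) and Prex1 (0.88), of which Prex1 lies on chromosome 2, 13.4 Mb distal of Asxl1. Phf20 was nearest to Ube2e2 (0.89), Tgif2 (0.88) and Nfatc2 (0.87), the last also on chromosome 2. Tgif2 was nearest to Tmem159 (0.89) and Phf20 (0.88). 2900097C17Rik was nearest to Coro7 (0.84), Pkig to Nrg4 (0.83) and Ahcy to Ccdc135 (0.81). Map1lc3a was nearest to Pigyl (0.94), and its highest r with another of the 7 genes was 0.15. Of the 50 genes most like each of the 7, between 2 and 7 lay on chromosome 2, where 7.73% of all genes lie. Among the 50 most like Tgif2, 5 were neighbours of Asxl1 (Phf20, Sox12, Nfs1, Ttpal and Dnmt3b), and neighbours make up 1.44% of all genes. The count was 2 for Ahcy and for Pkig and 0 for Map1lc3a. It was 1 for Serinc3, for Phf20 and for 2900097C17Rik, in each case another of the 7 genes. The centring kept the MT and WT difference for which the 7 genes were chosen, so these counts are not independent of that choice.

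The pathway partners of the 7 genes were looked at next, to see which of them differed with genotype. In both Cd11b sets 0 partners were called in any of 6 lists by edgeR. At an unadjusted p under 0.05 stood 0 of 51 tested partners at 4 months, against 3.23% of all genes, and 8 of 52 (15.4%) at 18 months, against 16.6% of all genes. DESeq2 called 0 and 1 of the partners. In LK cells 13.9% of all genes were called higher and 15.9% lower. These calls rest on replicates 2 and 3, since the number of genes called there fell from 4206 to between 981 and 1185 when any 1 of those 4 libraries was left out. Of the other SERINC genes, 2 of 3 were lower: Serinc5 (-0.34 ± 0.05) and Serinc1 (-0.16 ± 0.04). Of 10 genes listed for the methionine cycle, which makes and recycles the methyl donor that Ahcy serves, 7 were lower and 0 higher. Mtr (-0.42 ± 0.07), methionine synthase, and Mat2a (-0.24 ± 0.04), which makes S-adenosylmethionine, were among them with Adk and Ahcyl2. The list also holds Ahcy-like genes such as Ahcyl2, which are not established enzymes of the cycle. They are among the 7, so the count is not one of cycle enzymes alone. The median of that list was -0.18, and the median of all genes 0.02.

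Of 5 tested genes of the NSL complex besides Phf20, 3 were lower in LK cells: Hcfc1 (-0.49 ± 0.08), Ogt (-0.25 ± 0.05) and Phf20l1 (-0.22 ± 0.07). Phf20 itself was higher. Of 8 genes of protein kinase A and its inhibitors besides Pkig, 2 were lower: the regulatory subunit Prkar2a (-0.37 ± 0.05) and the catalytic subunit Prkacb (-0.21 ± 0.05). Of 15 genes of ATG8 conjugation besides Map1lc3a, 6 were higher and 1 lower. The ATG8 genes Gabarap (0.32 ± 0.06) and Gabarapl2 (0.27 ± 0.05), the conjugating enzyme Atg3 (0.19 ± 0.05) and the receptor Sqstm1 (0.19 ± 0.05) were higher with Map1lc3a, and the protease Atg4a (-0.41 ± 0.10) was lower. Of 13 genes of TGF-beta signalling besides Tgif2, Tgfb1 was higher (0.15 ± 0.04) and Smad3 (-0.20 ± 0.06) and Ski (-0.17 ± 0.05) were lower. With a trend on transcript length removed, the ATG8 list had 3 higher and 1 lower, the TGF-beta list 1 higher and 0 lower, and the NSL list 2 lower. The median log2 fold changes were -0.16 for the SERINC genes, -0.22 for the NSL complex, -0.06 for protein kinase A, 0.05 for ATG8 conjugation and -0.05 for TGF-beta signalling. Marker sums of several cell types differed without overlap between the same MT and WT LK libraries. The myeloid sum, given above, was higher in MT, as were the T and NK sum (238 to 294 CPM in MT and 197 to 232 CPM in WT, 2 of 7 genes called higher) and the progenitor sum (14625 to 16753 and 13401 to 14199 CPM, 2 of 8 genes called higher and 2 lower). The T and NK sum was mostly Nkg7 (145 to 232 CPM), and 6 of its 7 genes had positive log2 fold changes. The progenitor sum was mostly Mpo (7499 to 9948 CPM) and Elane, both called higher. Kit and Flt3 were called lower, and 5 of the 8 genes had negative values. Such a sum does not stand for a whole cell type. The erythroid sum was lower in MT (1834 to 2007 and 2182 to 2227 CPM, with Car1 called lower). The part of these markers in the counts and in the LK values of the 7 genes was not tested.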

How the data were processed

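RNA was sequenced from 19 mouse bone marrow libraries in 6 groups, taken from the sample titles. Per the labels' protocols, libraries came from 200 ng of total RNA with a directional kit. The submitters' processing notes name STAR, HTSeq and DESeq2, without versions, and mm10. Each library came as a table of raw counts that the authors deposited, indexed by gene symbol, and each cell set lists only genes with a summed count of 10 or more. Not given in the sources used here are the gene annotation, whether counting used strand and how multi-mapped reads were treated. The transposable element counts were not used.

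The 7 genes and the gene lists were chosen with earlier results of these data known. Gene positions came from GENCODE M21 (mm10), with RefSeq names as a fallback, for 96.6% of symbols. Counts were tested with edgeR 4.0.16 in R 4.3.3 (quasi-likelihood test, filterByExpr, TMM factors, robust fit), separately in each cell set and jointly for differences between sets, with Benjamini-Hochberg adjustment over all genes and a threshold of 0.05. Errors of log2 fold changes are standard errors, and intervals are 95% intervals from the same fits. CPM values use TMM factors over all 19 libraries. No overlap means that all MT libraries lay above or below all WT libraries of a set, in CPM scaled within the set.

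Genes were named by these rules: the 7 genes and Asxl1, up to 5 called genes per list, neighbours of Asxl1 without overlap in all 3 sets, and the 3 genes most correlated with each of the 7. Some of the genes that flank the 7 were added. A gene that these rules would name is not reported here. Near-identical transcripts were found with blastn 2.17.0 (at least 90% identity over 200 bases). Alternatives were RLE factors, no filter, DESeq2 1.42.0, a replicate block, each library left out, replicates 2 and 3 summed, and removal of a trend on transcript length (loess, span 0.5). The scripts were tested on simulated data. Total counts ran from 26251822 to 68260809 per library, and only the spread between libraries enters the errors. Same-numbered MT and WT libraries did not deviate together in every set, so the numbers were not taken as pairs.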

Additional observations from a re-analysis of the deposited data

Results flagged for a closer look

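In the WT libraries of Cd11b cells of 4 months, Serinc3 had 1 library far from the others. Replicate 4 was at 906 CPM and the other 3 at 958 to 963 CPM, and the gap made up 0.917 of the whole range, above the critical value for 4 libraries. Chance gives a gap above that critical value in about 1 of 20 groups, and 8 genes were looked at in that group. WT replicate 4 is also 1 of the 2 libraries of that set that deviated together.

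The difference between MT and WT was not the same in LK cells and in Cd11b cells of 18 months for 4 of the 8 genes, 3 of the 7 and Asxl1 itself, by edgeR's test of the difference. Map1lc3a had a difference of 1.07, Tgif2 of -1.28, Serinc3 of -0.48 and Asxl1 of -0.28 on the log2 scale. The Asxl1 call was lost in 11 of 18 alternatives by edgeR: in 8 fits without 1 library (adjusted p = 0.0659 to 0.0885), with a replicate block (0.112), with replicates 2 and 3 summed (0.476) and with a length trend removed (a difference of -0.02, adjusted p = 0.832).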

How the results depend on the processing

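Over 637 recomputed log2 fold changes and differences of the 7 genes, 18 changed sign. Of these 637, the 259 of MT against WT within a set were judged by size, and 9 moved by more than the spread between replicates. Their calls changed more: of 108 values called in the fits of the report, 43 lost the call (16 in Cd11b cells of 18 months and 27 in LK cells), and 5 were gained (3 at 4 months and 2 at 18 months in Cd11b cells). In the comparisons between ages, between cell types and among WT libraries 16 calls were lost and 1 was gained. The fit over 3 sets gives no log2 fold change and is not in these counts. Its Serinc3 call was also lost in some alternatives, as given above.

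DESeq2 called 19 genes in Cd11b cells of 4 months, 514 in Cd11b cells of 18 months (20 neighbours of Asxl1), 63 between ages and 2518 over 3 sets. Same-numbered MT and WT libraries were not taken as pairs. Correlations of their deviations were 0.39, 0.11 and -0.21 at 4 months. They were -0.08, 0.06 and -0.04 in Cd11b cells of 18 months and -0.33, -0.12 and -0.12 in LK cells. Between Cd11b and LK cells of 18 months, same-numbered libraries were at 0.05, 0.09 and 0.05 in MT and -0.02, -0.04 and -0.02 in WT. The labels do not say whether these 2 cell types came from the same mice. With a replicate block 16 genes were called at 4 months, 0 in Cd11b cells of 18 months (0 neighbours), 3 in LK cells (1 neighbour), 28 between ages, 0 between cell types (0 of the 7 genes, adjusted p = 0.0602 for Map1lc3a, Tgif2 and Serinc3 by edgeR) and 966 over 3 sets. With replicates 2 and 3 summed 1 gene was called in Cd11b cells of 18 months (0 neighbours), 3 in LK cells (1 neighbour) and 0 between cell types (0 of the 7 genes). Removing the length trend left 2481 calls in LK cells (39 neighbours) and 1476 between cell types. Leaving out MT replicate 3 and WT replicate 4 at 4 months gave 69. Taking 50 genes on each side gave 3 neighbours in Cd11b cells of 18 months and 40 in LK cells, and 150 on each side gave 5 without overlap in all sets. The causes were not tested.

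Leaving out 1 library gave 0 to 1 genes at 4 months, 0 to 1819 in Cd11b cells of 18 months (0 to 37 neighbours), 981 to 5569 in LK cells (23 to 87 neighbours), 0 to 39 between ages, 1129 to 4168 between cell types (3 to 4 of the 7 genes), 409 to 2395 over 3 sets (2 to 3 of the 7) and 3 to 5 neighbours without overlap.

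Signs changed in these ranges over the fits without 1 library. Asxl1 in Cd11b cells of 18 months ran from -0.0368 to 0.0259 and Tgif2 in LK cells from -0.0060 to 0.0992. Between ages, Serinc3 ran from -0.1448 to 0.1283, Ahcy from -0.4545 to 0.0375, Map1lc3a from -0.0364 to 0.2694 and Pkig from -0.0104 (also -0.0067) to 0.1299. Between cell types, Ahcy ran from -0.0025 to 0.4857, 2900097C17Rik from -0.1004 to 0.0155 and Pkig from -0.0210 (also -0.0048, -0.0203 and -0.0033) to 0.0813. Pkig was -0.0449 with replicates 2 and 3 summed. With the length trend removed Phf20 was 0.0056, 2900097C17Rik 0.0870 and Pkig -0.0238. Phf20 between WT cell types was -0.0363 with RLE factors and -0.0371 with DESeq2.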

Other observations

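Other genes of chromosome 2 with genotype differences were seen beside the 7, and were chosen after their values were seen. Trp53inp2, which encodes a protein of autophagy, lies 2.04 Mb distal of Asxl1 and had log2 fold changes of MT against WT of 0.40 in Cd11b cells of 4 months, 0.40 in Cd11b cells of 18 months (adjusted p = 0.0195, edgeR) and 0.32 in LK cells (not called). Nfatc2, a calcium-regulated transcription factor 15.3 Mb distal, was at 0.44, 0.93 and 0.28, with adjusted p = 0.0159 in Cd11b cells of 18 months (edgeR). Lbp, the lipopolysaccharide-binding protein gene 4.96 Mb distal, was at -0.34, -0.41 and 0.08, and was called in Cd11b cells of 18 months (adjusted p = 0.0159, edgeR). Beyond the 7, the chromosome 2 genes without overlap in the same direction in all 3 sets were Pcif1 (11.5 Mb distal; -0.07, -0.08 and -0.23), Arfgef2 (13.5 Mb distal; -0.08, -0.13 and -0.44) and Grb14 (proximal, at -88.3 Mb; 0.98, 0.79 and 0.67).

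The antisense gene Gm16316, which overlaps Pkig, had opposite values in the 2 cell types of 18 months. It was at 0.66, 0.25 and 0.18 CPM in MT and 0.73, 1.06 and 0.89 CPM in WT Cd11b cells of 18 months, and at 1.06, 1.34 and 1.24 CPM in MT and 0.40, 0.49 and 0.39 CPM in WT LK cells. The groups did not overlap in either set, and the LK value was called (log2 fold change 1.46, adjusted p = 0.0063) but the Cd11b value was not (-1.26, adjusted p = 0.220, edgeR). In Cd11b cells of 4 months the groups overlapped, at 0.31 to 1.21 CPM in MT and 0.46 to 0.84 CPM in WT, with a log2 fold change of 0.24, so the sign did not follow the cell type over the 3 sets. The difference of the 2 log2 fold changes of 18 months was 2.71 ± 0.50 (SE, adjusted p = 0.0068 by edgeR) on 7 to 87 reads per library, while Pkig kept its value.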
